A study of Arabidopsis thaliana with 15 samples.

Results

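HCT and the peroxidases PRX25, PRX52, PRX71 and PRX72 are 5 genes of lignin formation, and their transcripts were followed in Arabidopsis thaliana hypocotyls after plants were moved from short to long days. HCT (AT5G48930) carries that symbol in the reference gene table, as does PRX52 (AT5G05340). PRX25 (AT2G41480), PRX71 (AT5G64120) and PRX72 (AT5G66390) carry theirs there as synonyms. Each gene was read from the probe set annotated to it alone, and each had 1 such probe set. They are 5 of the 16411 genes measured in this way, on arrays of 38408 probe sets.

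The 15 arrays come from Col-0 plants kept for 6 weeks in short days of 8 h light and then moved to long days of 16 h light, at 22 °C, a change that brings on flowering. For each of days 0, 1, 2, 4 and 10 counted from the move, 3 pools of 8 hypocotyls were sampled, so that day 0 is the short-day control and all groups share 1 genotype and no further treatment. No group stayed in short days beyond day 0, so the effect of day length and of plant age cannot be told apart. Array medians lay between 84.1 and 90.6 on the intensity scale, arrays of the same day correlated at 0.983 to 0.990 across probe sets, and arrays of different days at 0.965 to 0.988.

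Lignin is a polymer of phenolic alcohols, the monolignols, that stiffens the secondary walls of xylem vessels and fibres, and the hypocotyl forms much of this tissue once the plant flowers. HCT acts inside the cell, early in monolignol synthesis: it transfers p-coumaroyl groups from coenzyme A to shikimate, which opens the way to the methoxylated monolignols. Class III peroxidases act in the wall, where they use hydrogen peroxide to oxidise monolignols so that these couple into lignin, a step that laccases share. In Arabidopsis, loss of PRX25, PRX52, PRX71 or PRX72 is known to alter stem lignin, and PRX71 is also known from wall stress and growth control. The family is large, and many of its members act in processes other than lignification.

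Of the 5 genes, HCT and PRX72 changed over the course, HCT upward and PRX72 downward when set against day 0. Their called steps fell at different times. PRX72 fell on day 1, when the change of HCT was log2 0.05 and not called. HCT rose from day 1 to day 2, when the change of PRX72 was 0.01 and not called. For that step a direct limma test of the difference between HCT and PRX72 did not pass (log2 0.26, adjusted p = 0.286 or 0.0695). The 2 adjusted p-values are those with PRX72 and with HCT as the gene subtracted. The synthesis gene HCT stood 1.37-fold above day 0 on day 10, and the peroxidase gene PRX72 was below day 0 on every later day, by up to 1.90-fold on day 4. PRX25, PRX52 and PRX71 passed in none of the 10 comparisons between days. The moderated F test of limma over the 5 days called HCT (adjusted p = 0.00101) and PRX72 (adjusted p = 0.000229), against 41.5% of all probe sets called. PRX25 (adjusted p = 0.286), PRX52 (0.765) and PRX71 (0.789) did not pass. The 2 of 5 called are near that background share.

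**Figure D1:**
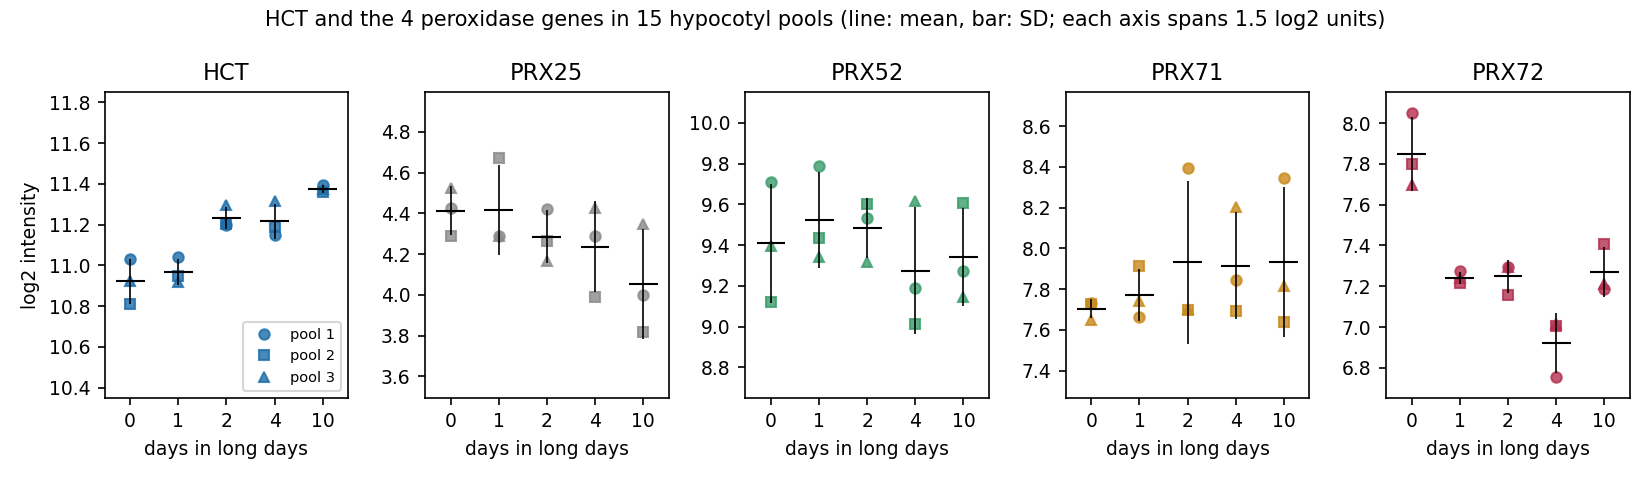
Log2 intensity (vertical axis, 1.5 log2 units in each panel) of HCT, PRX25, PRX52, PRX71 and PRX72 in each of the 15 pools, by days in long days (horizontal axis); symbols are pools, lines are means and bars are SD of 3 pools. The 3 HCT pools of day 10 lie above those of every other day, the 3 PRX72 pools of day 0 lie above those of every other day, and the pools of PRX25, PRX52 and PRX71 overlap between days.

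HCT had an intensity of 2092, 1793 and 1945 in the 3 pools of day 0, and of 2105, 1978 and 1933 on day 1. On day 2 its pools stood at 2347, 2360 and 2515, and on day 4 at 2273, 2333 and 2545. On day 10 they stood at 2689, 2624 and 2654. Days 0 and 1 overlapped, days 2 and 4 overlapped with each other and lay wholly above days 0 and 1, and day 10 lay wholly above all other days.

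HCT rose on day 2 against day 0 (log2 0.31 ± 0.07 SE, 1.24-fold, adjusted p = 0.00887) and on day 4 (0.30 ± 0.07, 1.23-fold, adjusted p = 0.00921). The rise was largest on day 10 (0.45 ± 0.07, 1.37-fold, adjusted p = 0.000417), and on day 1 the gene stood at 0.05 ± 0.07 (adjusted p = 0.842). All of these tests come from 1 limma fit with Benjamini-Hochberg adjustment over all probe sets, and n = 3 pools per day throughout. When just the 6 arrays concerned were fitted, the calls of day 2 and day 4 were lost (adjusted p = 0.0675 and 0.0758), while that of day 10 held in each of the 23 alternatives, at adjusted p of up to 0.0140.

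By mean level, the days of HCT ran from day 0 through day 1, day 4 and day 2 to day 10. Among neighbours in this order, day 4 lay above day 1 (log2 0.25 ± 0.07, adjusted p = 0.0245). Day 1 and day 0, day 4 and day 2 (−0.02 ± 0.07, adjusted p = 0.934), and day 10 and day 2 (0.14 ± 0.07, adjusted p = 0.172) were not told apart by the test. The step from day 1 to day 2 passed (day 2 against day 1, 0.26 ± 0.07, 1.20-fold, adjusted p = 0.0275), and that from day 4 to day 10 did not (0.16 ± 0.07, adjusted p = 0.162), although its pools did not overlap. Day 2 against day 1 did not pass when fitted on its own 6 arrays (adjusted p = 0.0894). It was also lost when day 1 replicate 2 (0.0740) or 3 (0.0977) was dropped, and when day 2 replicate 2 (0.0568) or 3 (0.101) was. Day 4 against day 1 was lost when day 1 replicate 2 (0.0666) or 3 (0.0847) or day 4 replicate 3 (0.0950) was dropped, and on its own 6 arrays (0.0880).

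PRX72, whose loss is known to lower the syringyl part of Arabidopsis lignin, had intensities of 265, 223 and 207 in the day 0 pools. It had 155, 149 and 151 on day 1, and 157, 143 and 157 on day 2. On day 4 it had 108, 128 and 129, and on day 10 it had 146, 170 and 148. Every pool of the later days lay below every pool of day 0, and the 3 pools of day 4 lay below all others.

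PRX72 fell on day 1 to 1.52-fold below day 0 (log2 −0.61 ± 0.10, adjusted p = 0.00403) and stood 1.52-fold below it on day 2 (−0.60 ± 0.10, adjusted p = 0.00152). It was 1.90-fold below day 0 on day 4 (−0.92 ± 0.10, adjusted p = 5.06e-05) and 1.49-fold below it on day 10 (−0.58 ± 0.10, adjusted p = 0.00103). A whole-organ sample does not tell fewer cells of a type from less RNA per cell. On day 1, 4.88% of all probe sets were called, 2.39% higher and 2.49% lower, so 1 of the 5 genes was among them, and the call of PRX72 missed the threshold on the 6 arrays of days 0 and 1 alone (adjusted p = 0.0527). The later calls held in each of the 23 alternatives, with adjusted p of up to 0.0257 on day 2, 0.00786 on day 4 and 0.0214 on day 10.

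In order of mean level, PRX72 ran from day 4 through days 1, 2 and 10 to day 0. Days 1, 2 and 10 were not told apart (day 2 against day 1, log2 0.01 ± 0.10, adjusted p = 0.982; day 10 against day 2, 0.02 ± 0.10, adjusted p = 0.909). The lower level of day 4 against day 1 passed narrowly (−0.32 ± 0.10, adjusted p = 0.0421), as did the higher level of day 10 against day 4 (0.35 ± 0.10, 1.27-fold, adjusted p = 0.0381), and day 4 against day 2 did not (−0.32 ± 0.10, adjusted p = 0.0951). Day 4 against day 1 lost its call in 14 of 23 alternatives, the 3 rescalings among them. Its adjusted p reached 0.158, when day 4 replicate 1 was dropped, and was 0.0772 to 0.111 when any 1 pool of day 1 was. Day 10 against day 4 lost its call in 13 of 23 alternatives, among them each of the 3 rescalings of the arrays and the leaving out of day 4 replicate 1 (adjusted p = 0.142), day 10 replicate 2 (0.136) or day 10 replicate 3 (0.0631). Without day 4 replicate 2 or 3, day 0 replicate 2, or day 1 replicate 1 or 3 its adjusted p was 0.0506 to 0.0522.

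On day 2, 2 of the 5 genes were called, where 20.4% of all probe sets were. On day 4 it was 2 of 5 against 25.7%, and on day 10 it was 2 of 5 against 28.8%. On each of these days HCT was the 1 called higher, against 10%, 11.5% and 14.8% of all probe sets, and PRX72 the 1 called lower, against 10.3%, 14.2% and 14%. Between neighbouring days, HCT was called from day 1 to day 2, where 14.9% of probe sets were, none from day 2 to day 4 (5.42%), and PRX72 from day 4 to day 10 (17.1%). From day 2 to day 4 PRX72 alone had an unadjusted p under 0.05 (0.00846). Pools of 2 days that do not overlap are frequent on these arrays, at 22%, 36.2%, 40.5% and 41.5% of probe sets for days 1, 2, 4 and 10 against day 0. The share was 32.1% for day 2 against day 1, 25.4% for day 4 against day 2 and 33.8% for day 10 against day 4. It was 39.2% for day 4, and 41.9% for day 10, against day 1, and 40.3% for day 10 against day 2. The share of probe sets whose pools of a day lie apart from several other days at once was not counted. Against day 1, 23.7% of probe sets were called on day 4, where HCT and PRX72 were, and 28.9% on day 10, where HCT was (log2 0.41 ± 0.07, adjusted p = 0.000937). Against day 2, 26.8% were called on day 10 and 0 of the 5 genes were, with unadjusted p of 0.0699 or more.

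**Figure D2:**
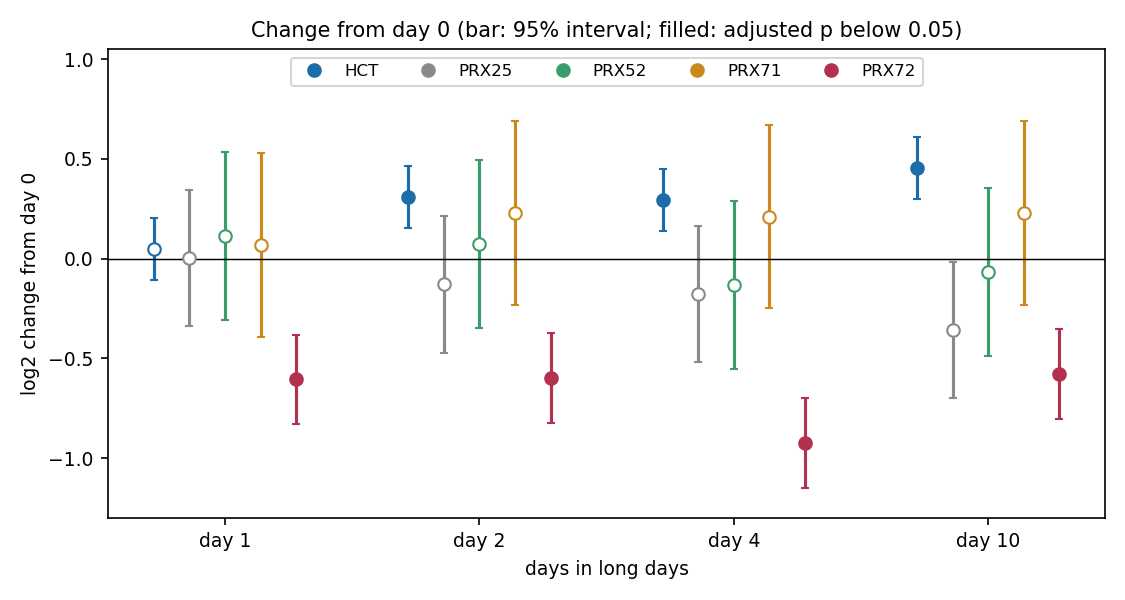
Log2 change from day 0 (vertical axis) of the 5 genes on days 1, 2, 4 and 10 (horizontal axis), with 95% intervals from the moderated fit as bars and filled circles for an adjusted p below 0.05. PRX72 is filled and below 0 on all 4 days, HCT is filled and above 0 on days 2, 4 and 10, and the wide bars of PRX52 and PRX71 span 0 on every day. PRX25 is open on every day, and its bar lies just below 0 on day 10.

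PRX52, a peroxidase gene known for its part in fibre lignin of the Arabidopsis stem, had 836, 557 and 674 in the day 0 pools and 884, 692 and 649 on day 1. It had 742, 776 and 637 on day 2, and 584, 517 and 786 on day 4. On day 10 it had 619, 780 and 566. The pools of every day overlapped those of every other day. Its change on day 10 against day 0 was log2 −0.07 ± 0.19 (adjusted p = 0.846), with a 95% interval of −0.49 to 0.35, so a change of the size seen for PRX72 (−0.58) lies just outside that interval and the size seen for HCT (0.45) also lies outside it.

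PRX71 had 213, 212 and 201 in the pools of day 0, and 203, 241 and 214 on day 1. It had 337, 208 and 208 on day 2, 230, 207 and 295 on day 4, and 325, 199 and 225 on day 10. Its 3 pools of day 0 were close together, with an SD of 0.05 on the log2 scale, while on days 2, 4 and 10 the SD was 0.40, 0.26 and 0.37 and 1 pool stood above the other two. The high pool was replicate 1 on days 2 and 10 and replicate 3 on day 4. On day 10 the change against day 0 was 0.23 ± 0.21 (adjusted p = 0.483), with a 95% interval of −0.23 to 0.69, and it was 0.02 without day 10 replicate 1.

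PRX25 was dim. It had intensities of 21.5, 19.5 and 23.0 in the day 0 pools, of 19.5, 25.5 and 19.5 on day 1, and of 21.5, 19.2 and 17.9 on day 2. On day 4 it had 19.5, 15.9 and 21.5, and on day 10 it had 16.0, 14.1 and 20.4. Its mean lay at the 19.4th percentile of all probe sets, below the median, and the other 4 genes lay above the median. The day 10 change was log2 −0.36 ± 0.16, with an unadjusted p of 0.0411 and an adjusted p of 0.113, which did not pass; the pools overlapped, and without day 10 replicate 3 it passed (−0.50, adjusted p = 0.0342). It was −0.24 without day 10 replicate 2 (adjusted p = 0.339) and −0.19 with a pseudocount of 16, which did not pass either. A detection call was not used here, so a level near the array's floor cannot be told from low expression.

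The 5 genes differed in how closely their pools agreed, and this bears on what could be seen. Pools of the same day spread with a residual SD of 0.07 log2 units for HCT and 0.12 for PRX72, against a median of 0.18 over all probe sets. It was 0.20 for PRX25, 0.25 for PRX52 and 0.28 for PRX71. The last of these lay at the 75.2nd percentile of all probe sets and that of HCT at the 11.2th. The intervals above give the sizes that these pools leave possible, and a missed threshold does not show that the transcripts held steady.

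Whether 2 of the genes changed by different amounts was tested on their difference within each array, in 10 pairs, with the log2 value of 1 gene subtracted from all other probe sets before the fit. On day 10 against day 0 the change of HCT exceeded that of PRX72 by log2 1.03 ± 0.12 (95% interval 0.78 to 1.28). It passed with either gene as the baseline (adjusted p = 1.4e-05 and 4.48e-06, where 64.1% and 56.9% of probe sets passed). The same difference was 0.65 ± 0.12 on day 1, 0.91 ± 0.12 on day 2 and 1.22 ± 0.12 on day 4, and passed with either baseline on each day. The share of probe sets passing against HCT was 3.29% on day 1, 37.9% on day 2 and 41.6% on day 4, and against PRX72 it was 74.7%, 66.7% and 83.8%. It differs widely with the baseline, so both p-values are given for each pair. For the step from day 1 to day 2, HCT minus PRX72 was 0.26 ± 0.12 and passed with neither baseline. Its adjusted p was 0.286 with PRX72 as the baseline and 0.0695 with HCT, where 3.58% and 28.1% of probe sets passed.

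HCT and PRX25 also differed in their day 10 change, by 0.81 ± 0.20 (adjusted p = 0.00867 and 0.00112, with 21.8% and 56.9% of probe sets passing). As PRX25 is dim and its level near the floor is uncertain, so is the size of this difference, which was 0.64 with a pseudocount of 16. PRX71 minus PRX72 (0.81 ± 0.23) and PRX52 minus PRX72 (0.51 ± 0.18) passed with PRX72 as the baseline (adjusted p = 0.00827 and 0.0226). Neither passed with the other gene as the baseline (0.0752 and 0.287, with 7.66% and 6.16% of probe sets passing). The call of PRX52 minus PRX72 was also lost when day 0 replicate 2 was dropped (0.0956), and when replicate 1 (0.0553) or 2 (0.0654) of day 10 was. HCT minus PRX52 (0.52 ± 0.24) passed with HCT as the baseline alone (0.0182, against 0.270 with PRX52). The other 5 pairs passed with neither, among them HCT minus PRX71 (0.22, 95% interval −0.33 to 0.78) and PRX25 minus PRX72 (0.22, −0.22 to 0.66), and the last of these passed with a pseudocount of 16 (0.34, adjusted p = 0.0395).

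**Figure D3:**
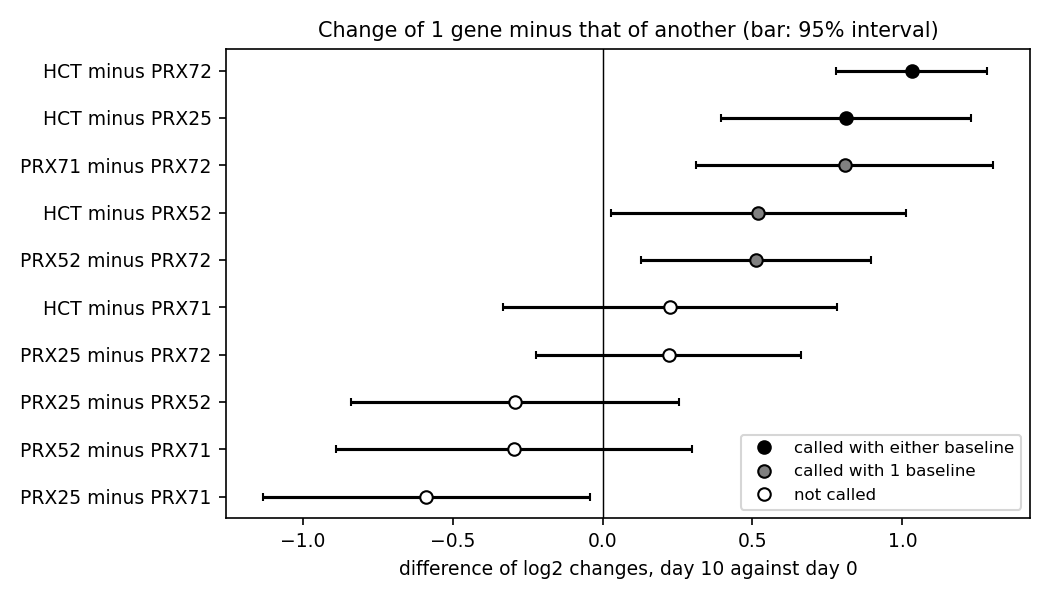
Difference between the log2 changes of 2 genes, day 10 against day 0 (horizontal axis), for the 10 pairs (vertical axis), with 95% intervals as bars. The difference of HCT and PRX72 is the largest at 1.03 and, like that of HCT and PRX25, passes with either gene as the baseline; 3 pairs pass with 1 baseline and 5 with none, and the 4 pairs that hold the dim PRX25 carry its uncertain level.

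The wider pathway was only partly measured. Of 19 genes of monolignol synthesis 2 had a probe set of their own, HCT and CCR2 (AT1G80820), a cinnamoyl-CoA reductase best known from defence. CCR2 had 928, 1342 and 1112 in the day 10 pools, against 2601, 2342 and 2185 in those of day 0, and the pools did not overlap. It fell 2.13-fold on day 10 (log2 −1.09 ± 0.14, adjusted p = 7.65e-05) and was also lower on days 2 and 4 (−0.59 and −0.52, adjusted p = 0.00991 and 0.0146), so the 2 measured synthesis genes moved in opposite directions. The day 4 call of CCR2 was lost without day 0 replicate 1 (0.0540) or day 4 replicate 2 (0.0518). Of 17 laccases 2 were measured, and LAC16 (AT5G58910) fell 2.14-fold on day 10 (−1.10 ± 0.16, adjusted p = 0.000184), with 116, 144 and 125 in the day 10 pools against 265, 252 and 310 in the day 0 pools. The other, AT5G01050, stood at −0.32 ± 0.21 (adjusted p = 0.310). Further synthesis genes, the lignin MYB regulators (0 of 14) and the markers of xylem (0 of 7), of cambium and phloem (0 of 6) and of periderm and endodermis (0 of 6) had no probe set of their own and are not analysed here.

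Genes that store or release monolignols as glucosides were all measured, 6 of 6, and 4 of them fell on day 10, when 14% of all probe sets were called lower (median of the 6, log2 −1.22; median of all genes, 0.02). BGLU45 (AT1G61810) and BGLU46 (AT1G61820), β-glucosidases known to act on monolignol glucosides, were lower by log2 −1.93 ± 0.15 (3.80-fold, adjusted p = 1.19e-06) and −0.98 ± 0.28 (1.97-fold, adjusted p = 0.0209). BGLU47 (AT4G21760), their relative, fell 8.77-fold (−3.13 ± 0.09, adjusted p = 6.25e-10), and UGT72E1 (AT3G50740), a glucosyltransferase of phenylpropanoids, fell 2.75-fold (−1.46 ± 0.15, adjusted p = 1.37e-05). UGT72E1 was dim on day 10, with 19.9, 20.9 and 29.0 in its pools against 66.5, 63.7 and 59.1 on day 0. Its day 10 change ran from −1.63 to −1.02 in the 22 alternatives and passed in each, so its size is uncertain. UGT72E2 (AT5G66690) and UGT72E3 (AT5G26310) stood at 0.03 ± 0.19 and 0.09 ± 0.31 on day 10. UGT72E2, dim at intensities of 13.0 to 26.4, was called higher on day 4 (0.59 ± 0.19, adjusted p = 0.0341). Its pools had 16.3, 26.4 and 21.9 on day 4 against 13.7, 13.0 and 15.4 on day 0, and this call was not tried in the alternatives. BGLU45 was already lower on day 1 (−1.15 ± 0.15, adjusted p = 0.000520), the day on which PRX72 fell, and so was UGT72E1 (−0.63 ± 0.15, adjusted p = 0.0306), whose day 1 call was lost in 8 of 22 alternatives, at adjusted p of up to 0.111. These included the dropping of any 1 pool of day 0 or day 1. The call of BGLU46 was lost without day 0 replicate 1 or 2, or without day 10 replicate 2 or 3, at adjusted p of 0.0522 to 0.0878.

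Other secondary wall genes can be set beside them. Of the 11 genes listed for secondary wall cellulose and xylan 4 were measured, all xylan genes, and all 4 were higher on day 10, when 14.8% of all probe sets were called higher (median log2 1.23, range 0.32 to 1.73). The rise of HCT (0.45) lies within this range and the change of PRX72 (−0.58) below it. On day 4 all 4 were also higher (0.32 to 1.07), and HCT (0.30) lay just below that range. On day 1 the 4 split. The dim IRX15 (AT3G50220) was called lower (−0.34, adjusted p = 0.0494) and IRX15L (AT5G67210) higher (0.27, adjusted p = 0.0346). These day 1 calls were lost in 17 of 22 and 10 of 23 alternatives. Of the green-tissue markers 3 of 5 were measured (RCA, LHCB4.1 and PRK), all 3 were lower on days 4 and 10, when 14.2% and 14% of all probe sets were called lower. None of the 3 was called by limma on day 1 or day 2 in the main setting. The day 2 change of RCA (AT2G39730) passed in 2 of 23 alternatives, at adjusted p down to 0.0380. The day 4 call of LHCB4.1 (AT5G01530) was lost when day 0 replicate 2 (adjusted p = 0.0595) or 3 (0.0668) or day 4 replicate 1 (0.0554) or 3 (0.0527) was dropped, and its day 1 change passed among the brighter probe sets alone (0.0473). Their summed intensity was 1821 to 2021 on day 0, 1433 to 1840 on day 1, 1693 to 1825 on day 2, 1124 to 1263 on day 4 and 803 to 836 on day 10, and none was at 0. Their part in the changes of HCT and PRX72 was not tested.

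The class III peroxidase family puts the 4 peroxidase genes in context. It was listed by 73 locus tags, of which 64 had a probe set of their own, and most carry no name in the reference table and are given by locus tag. Of the 64, 28 had a mean above the median of all probe sets, and the rest were, like PRX25, below it. On day 10 against day 0, 11 of the 64 were higher and 15 lower, which is 40.6% against 31.2% of all genes and 28.8% of all probe sets. Over the 5 days the moderated F test called 39.1% of the 64 against 42.8% of all genes. The median change of the 64 was log2 0.00 and their range −1.79 to 2.25, so that the family spread in both directions. The called fall of PRX72 (−0.58) is the 10th lowest of the 64, and 9 others were lower.

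**Figure D4:**
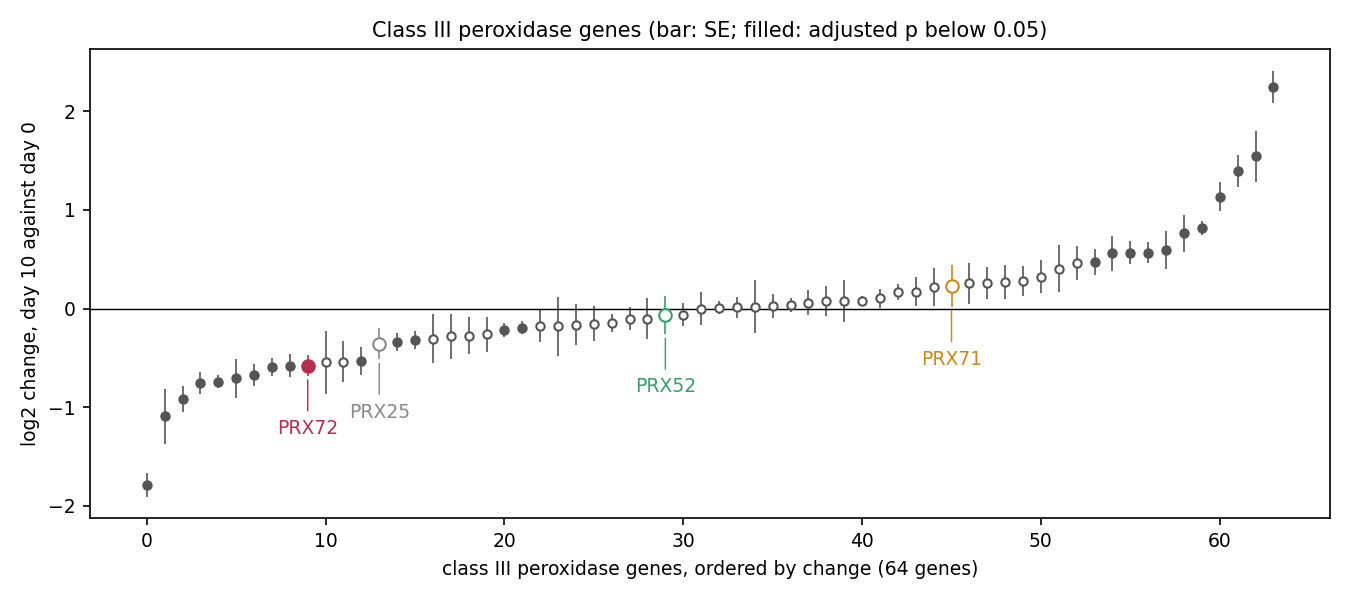
Log2 change on day 10 against day 0 (vertical axis) of 64 class III peroxidase genes ordered by change (horizontal axis), with SE as bars and filled circles for an adjusted p below 0.05. PRX72 lies among the falling genes, PRX25, PRX52 and PRX71 are open circles, and the family runs from −1.79 to 2.25 with 15 genes lower and 11 higher.

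The largest peroxidase rise was that of AT5G58390, with 2705, 2695 and 2356 in the day 10 pools against 523, 547 and 555 in those of day 0 (4.76-fold, log2 2.25 ± 0.16, adjusted p = 7.37e-07). It passed from day 2 on (1.35 on day 2 and 2.07 on day 4), the same days on which HCT was above day 0, as did AT5G06730 (0.46 on day 2, 0.80 on day 4 and 0.81 ± 0.07 on day 10, adjusted p = 3.01e-06). AT4G33420 (1.54 ± 0.26), AT4G30170 (1.40 ± 0.17) and AT4G37530 (1.13 ± 0.15) were called on day 10 and on none of days 1, 2 and 4. AT4G30170 was dim, with 35.7, 38.6 and 27.7 in the day 10 pools against 10.9, 14.8 and 13.0 in those of day 0, and its change was 0.79 with a pseudocount of 16, which still passed. All 3 had pools of day 10 that lay above every pool of the 4 other days. These genes were named for having the largest rises on day 10, so the smaller changes of PRX25, PRX52 and PRX71 follow from that choice. The place of the day 10 pools above the others also follows from it in part. The share of all probe sets with such pools was not counted.

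The largest peroxidase fall was that of AT1G44970, with 33.7, 31.2 and 43.3 in the day 10 pools against 112, 131 and 128 in those of day 0 (3.45-fold, −1.79 ± 0.12, adjusted p = 3.7e-07). It was 0.59 lower on the log2 scale on day 4 (−0.59, adjusted p = 0.00302). AT2G38390 (−0.92 ± 0.13), AT2G34060 (−0.76 ± 0.11) and AT2G38380 (−0.74 ± 0.07) were called lower on days 4 and 10. On day 1 AT2G38390 stood at −0.46 ± 0.13 (adjusted p = 0.0822) and passed in 3 of 23 alternatives, and whether these genes differ from PRX72 in timing was not tested. The day 4 calls of AT2G34060 and AT2G38380 were each lost when 1 of 2 pools was left out (day 0 replicate 3 or day 4 replicate 3 for AT2G34060, adjusted p = 0.0596 and 0.0600; day 0 replicate 2 or day 4 replicate 1 for AT2G38380, 0.0571 and 0.0574). That of AT2G38380 was also lost after median centring (0.0558) and on the 6 arrays alone (0.0603).

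AT5G51890 followed yet another course. Its pools had 180, 112 and 107 on day 0, 159, 61.7 and 88.3 on day 1, and 195, 184 and 198 on day 2. They had 209, 250 and 224 on day 4 and 64.6, 53.9 and 63.9 on day 10. The pools of day 4 lay above all others, and on day 10 the gene was 2.14-fold below day 0 (log2 −1.09 ± 0.28, adjusted p = 0.0107). Its day 4 change of 0.81 ± 0.28 stood at adjusted p = 0.0520 and passed in 11 of 23 alternatives.

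**Figure D5:**
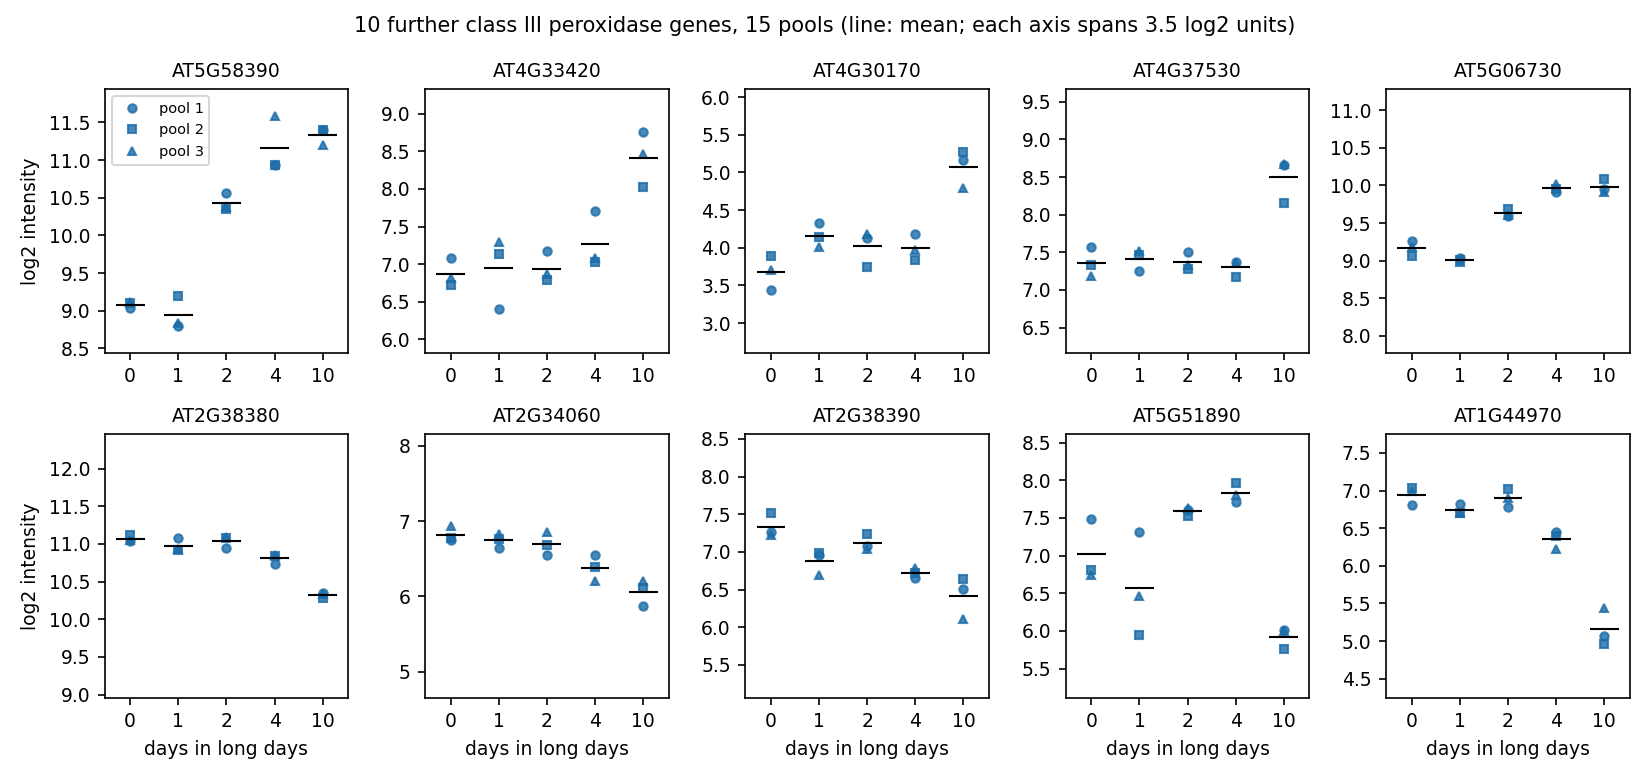
Log2 intensity (vertical axis, 3.5 log2 units in each panel) in the 15 pools of the 5 class III peroxidase genes with the largest rises (upper row) and the 5 with the largest falls (lower row) on day 10 against day 0, by days in long days (horizontal axis); lines are means of 3 pools. AT5G58390 and AT5G06730 are higher from day 2 on, AT4G33420, AT4G30170 and AT4G37530 on day 10, and AT5G51890 is highest on day 4 and lowest on day 10.

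Fewer of the family were called on the earlier days. On day 1, 1 was higher and 2 lower, 1 of them PRX72, or 4.69% of the 64 against 5.53% of all genes. On day 2, 7 were higher and 3 lower, or 15.6% against 20.2% of all genes, and on day 4, 6 were higher and 9 lower, or 23.4% against 25.8%. The split of day 4 turned with the scaling, to 9 higher and 6 lower after median centring and to 8 and 7 with cyclic loess or quantile normalization. Without day 2 replicate 2 the day 2 count was 5 higher and 1 lower, and without day 2 replicate 3 it was 4 and 1.

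PRX71 stands in a tandem row of 3 peroxidase genes in the reference gene table, after AT5G64100 and AT5G64110. On day 10 against day 0 these stood at log2 0.03 ± 0.12 (adjusted p = 0.908) and −0.10 ± 0.12 (adjusted p = 0.596). None of the 3 was called, where 31.2% of all genes were, and so few genes cannot be told from that share. AT5G64100 and AT5G64110 had means below the median of all probe sets. On one side PRX72 is next to RAB18, a dehydrin gene known for its response to abscisic acid, and RAB18 has no probe set of its own and is not analysed here. The probe sequences were not used, so whether the probe set of a peroxidase also binds RNA of a close relative was not tested.

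Genes whose pattern was most like that of each gene were taken from those called by the F test, by Pearson's r over the 15 arrays. For HCT they were AT5G42090 (r = 0.97), AT5G46115 (0.96) and AT5G18200 (0.96), and the most opposite was AT5G40030 (−0.94). For PRX72 they were AT1G74370 (0.94), AT2G07749 (0.94) and AT5G02860 (0.93), and the most opposite was AT1G63420 (−0.95), which stood 1.00 above day 0 on the log2 scale on day 10. The best matches were weaker for PRX25 (AT5G44570, 0.80), PRX71 (AT2G21195, 0.70) and PRX52 (rpoB, a plastid-encoded RNA polymerase gene, 0.68). Each is the best of 7015 or 7016 genes on the same arrays, and HCT and PRX72 were among the genes called while the other 3 were not. Between the members, r over the 15 arrays was −0.47 for HCT and PRX72, −0.53 for HCT and PRX25 and 0.37 for HCT and PRX71, and it lay between −0.28 and 0.26 for the other 7 pairs.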

How the data were processed

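The authors deposited array intensity, 1 column per pool. The submitters' processing notes name RMA and Partek; what each did, and the build behind the probe annotation, is not stated in the labels. These deposited intensity values are linear; log2 values were taken with no pseudocount and no further scaling. Of 38408 probe sets 16722 have 1 annotated gene, 759 several and 20927 none, and 16574 of those with 1 gene matched the RefSeq gene table (TAIR10.1) by gene identifier.

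limma 3.58.1 in R 4.3.3 fitted 1 mean per day over 15 arrays (10 residual degrees of freedom). Tests are two-sided moderated contrasts and the moderated F, adjusted by Benjamini-Hochberg over all probe sets and called at an adjusted p below 0.05; ± values are SE. Day 4 against day 1 and day 10 against days 1 and 2 were added after seeing the data, to order the days. Genes outside the 5 were named mainly by rule: of each list, those called on day 10 (up to 6 by adjusted p), with the 5 largest rises and 5 largest falls of the peroxidases. The xylan genes met this rule and are given mainly as a group. Some list members not called on day 10 were named beside them, as were neighbours in the reference table and the genes most alike or opposite in pattern. The 5 genes and the lists were chosen with earlier results of these data known. The fit was tested on simulated data. Replicates are pools of separate plants, which is the spread the p-values rest on; with 3 per day, precision is limited by that number. Plots used matplotlib 3.10.9.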

Additional observations from a re-analysis of the deposited data

How the results depend on the processing

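The alternatives were median centring, cyclic loess and quantile normalization, a filter that keeps the brighter 19204 probe sets (without PRX25), a pseudocount of 16, the replicate number as a block, an intensity trend with robust variance, the arrays of the compared days alone, and leaving out each of the 15 arrays. Each of the 5 genes has 1 probe set, so no other probe set could be tried. No called value of the 5 genes, the pairs or the other genes named by the list rule turned its sign. For the 5 genes 39 alternative values lost a call, 3 gained one and 1207 kept their side of the threshold. The number of the 5 genes called on day 1 went to 0, and on days 2 and 4 to 1, with the 6 arrays of the days compared. For day 2 against day 1, with these 6 arrays, it went to 0, and it ran from 0 to 1 when an array was left out. For day 10 against day 4 it went to 0 with median centring, cyclic loess, quantile normalization, the replicate block and the 6 arrays, and ran from 0 to 1 when an array was left out. For day 4 against day 2 it went to 1 with the filter, where PRX72 passed at adjusted p = 0.0388. For day 4 against day 1 it was 2 in the main fit, 1 with the 3 scalings and the block, and 0 with the 6 arrays, and it ran from 0 to 2 when an array was left out. For day 10 against day 1 it was 1 and became 2 without day 10 replicate 3, where PRX25 passed (adjusted p = 0.0331). The peroxidase count of day 1, 3 of 64, went to 6 of the 28 peroxidase genes that the filter keeps, and to 1 of 64 with 6 arrays. That of day 2, 10 of 64, went to 5 with 6 arrays and ran from 5 to 10 when an array was left out.

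Same-numbered pools of different days did not deviate together (median r = −0.01 over 30 pairs, −0.16 to 0.12, 2 of them over 0.1), so the number was not taken as a pairing. With the replicate block, the changes of PRX72 for day 10 against day 4 (0.35, adjusted p = 0.0657) and day 4 against day 1 (−0.32, adjusted p = 0.0702) lost their calls, and the block changed no other call of the 5 genes. Over all probe sets, 6 arrays alone gave 917 calls in place of 1874 for day 1, 5021 in place of 7832 for day 2, 2898 in place of 5723 for day 2 against day 1, 311 in place of 2080 for day 4 against day 2 and 3522 in place of 6572 for day 10 against day 4. Day 1 gave 1190 without day 0 replicate 2, day 2 against day 1 gave 3748 without day 1 replicate 3, and day 4 against day 2 gave 3200 with the filter and 1151 to 1371 without day 2 replicate 2 or 3 or any 1 pool of day 4. After median centring the calls split into 1145 higher and 773 lower on day 1 (919 and 955 before), 5236 and 3084 on day 2 (3859 and 3973), 6134 and 3989 on day 4 (4424 and 5445), and 2740 and 3517 for day 10 against day 4 (3613 and 2959), where cyclic loess gave 2833 and 3528.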

Other observations

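Of the genes related to HCT by sequence family, the acyltransferases SDT (AT2G23510) and AT2G25150 were measured and stood at log2 −0.11 ± 0.19 (adjusted p = 0.733) and 0.07 ± 0.15 (adjusted p = 0.775) on day 10 against day 0. Of the NADPH oxidases, whose family supplies hydrogen peroxide to wall peroxidases, 2 of 10 were measured. AT4G25090 and AT4G11230 stood at 0.22 ± 0.14 (adjusted p = 0.297) and 0.18 ± 0.12 (adjusted p = 0.325) on day 10, and neither passed.

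Among the genes within 2 places of the 5 in the reference table, 15 were measured. AT5G05320, before PRX52, rose on day 10 (log2 0.57, adjusted p = 0.00395) and AT2G41475, next to PRX25, fell (−0.44, adjusted p = 0.00012). AT2G41500 (LIS), also near PRX25, rose (0.22, adjusted p = 0.0239), and the other 12 did not pass, so 3 of 15 were called where 28.8% of all probe sets and 31.2% of all genes were. These were singled out after their values were seen.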
